A study of Capra hircus with 12 samples.

Results

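RFX4, MYCL and TP53INP2 are 3 transcription regulators that were followed across 4 groups of dairy goats differing in breed and diet. They are 3 of the 4974 genes with values in any of the 6 tables that compare pairs of groups, and 3 of the 1408 genes whose counts are given for all 12 libraries. They were chosen by name because the study lists all of them among the genes that differ between ME and MC, and MYCL also between PE and PC. It also names RFX4 and TP53INP2 as lower in ME than in PC, though it reports no list of genes for that pair. For those comparisons the values are therefore a description, and no p is given.

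The samples were mammary gland biopsies of lactating goats of the Majorera breed, regarded as tolerant to seasonal weight loss, and of the Palmera breed, regarded as susceptible. ME and PE are the feed-restricted Majorera and Palmera goats, kept on wheat straw with a vitamin and mineral supplement. MC and PC are the control Majorera and Palmera goats on a diet that met the needs of lactation. Each group has 3 libraries, each from a different goat, so that a replicate number names a goat and pairs nothing. All restricted goats shared 1 pen and all control goats another, and an effect of the pen cannot be told apart from one of the diet. In a whole biopsy, fewer cells of a type and less RNA per cell cannot be told apart either.

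RFX4 is a member of the regulatory factor X family, proteins that bind the X-box of promoters through a winged-helix domain. In mouse it is best known from the developing brain, where it is needed for normal formation of the dorsal midline and the ventricles. MYCL belongs to the MYC family, basic helix-loop-helix leucine zipper proteins that bind E-box DNA together with MAX and act on growth and proliferation genes. TP53INP2, also called DOR, has a pair of settings in human and rodent cells. In the nucleus it is a coactivator of nuclear receptors such as the thyroid hormone receptor, and on starvation it leaves the nucleus, binds LC3 and GABARAP proteins and takes part in the formation of autophagosomes.

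The depth was 29400000 to 54600000 mapped reads per library (rounded). Levels are given in CPM, counts per 1000000 mapped reads after scaling by TMM factors, which correct for a few genes taking a large share of the reads. The factors were 1.10, 2.00 and 1.17 in ME, 0.764 to 0.818 in MC, 0.641 to 1.39 in PE and 0.903 to 1.09 in PC, so that ME replicate 2 stood apart at 2.00. Beta-casein (CSN2), the main marker of secretory epithelium, was present in every library and took 10.1 to 23.9% of the mapped reads in ME, 21.2 to 27.6% in MC, 7.63 to 19.7% in PE and 31.1 to 52.6% in PC.

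RFX4 was low in all ME libraries and varied most in PE. In ME it had 2.16, 0.764 and 2.32 CPM, and in MC it had 5.10, 19.6 and 5.54 CPM. Every ME library lay below every MC library, and MC replicate 2 stood well above the other MC goats. In PE, RFX4 had 0.757, 16.1 and 5.16 CPM, and in PC it had 22.6, 13.8 and 11.9 CPM. The PE libraries ranged over 21.3-fold, with replicate 1 at the level of the lowest ME library and replicate 2 inside the range of PC. These levels rest on 64 to 110 expected counts in ME, 157 to 558 in MC, 37 to 473 in PE and 377 to 724 in PC.

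The group means of RFX4 were 1.75 ± 0.856 CPM in ME, 10.1 ± 8.26 CPM in MC, 7.34 ± 7.90 CPM in PE and 16.1 ± 5.75 CPM in PC (SD, n = 3 each). In the order PC, MC, PE and ME, each neighbouring pair of groups overlapped. The SD of PE was larger than its mean.

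MYCL was low in both restricted groups. In ME it had 1.19, 1.12 and 2.10 CPM, and in MC it had 6.10, 7.63 and 4.77 CPM. Every ME library lay below every MC library. In PE, MYCL had 0.389, 0.647 and 0.897 CPM, and in PC it had 3.25, 6.88 and 1.48 CPM. Every PE library lay below every PC library, and also below every ME library. PC replicate 3, at 1.48 CPM, was the only control library inside the range of ME.

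The group means of MYCL were 1.47 ± 0.546 CPM in ME, 6.16 ± 1.43 CPM in MC, 0.644 ± 0.254 CPM in PE and 3.87 ± 2.75 CPM in PC (SD, n = 3 each). In the order MC, PC, ME and PE, neighbours overlapped except ME and PE. MYCL had the fewest counts of the 3 genes in PE, with 19.0, 19.0 and 48.0 expected counts, against 104, 220 and 47 in PC. Its expected counts were 48 to 99.5 in ME and 135 to 217 in MC. In 3 libraries they were not whole, since RSEM can divide a read between loci, and the MYCL values are uncertain by that part.

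TP53INP2 in CPM was lowest in ME and highest in the control groups. In ME it had 7.10, 9.39 and 9.33 CPM, and in MC it had 18.4, 21.3 and 36.5 CPM. The ME libraries lay close together and all below MC. In PE, TP53INP2 had 10.3, 22.0 and 10.05 CPM, and in PC it had 26.1, 19.6 and 41.3 CPM. PE replicate 2 was above PC replicate 2, while PE replicates 1 and 3 were below every control library of either breed.

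The group means of TP53INP2 were 8.61 ± 1.30 CPM in ME, 25.4 ± 9.71 CPM in MC, 14.1 ± 6.83 CPM in PE and 29.0 ± 11.1 CPM in PC (SD, n = 3 each). In the order PC, MC, PE and ME, neighbours overlapped except PE and ME. These levels rest on 286 to 786 expected counts in ME, 574 to 1034 in MC, 506 to 647 in PE and 627 to 1312 in PC.

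**Figure D1:**
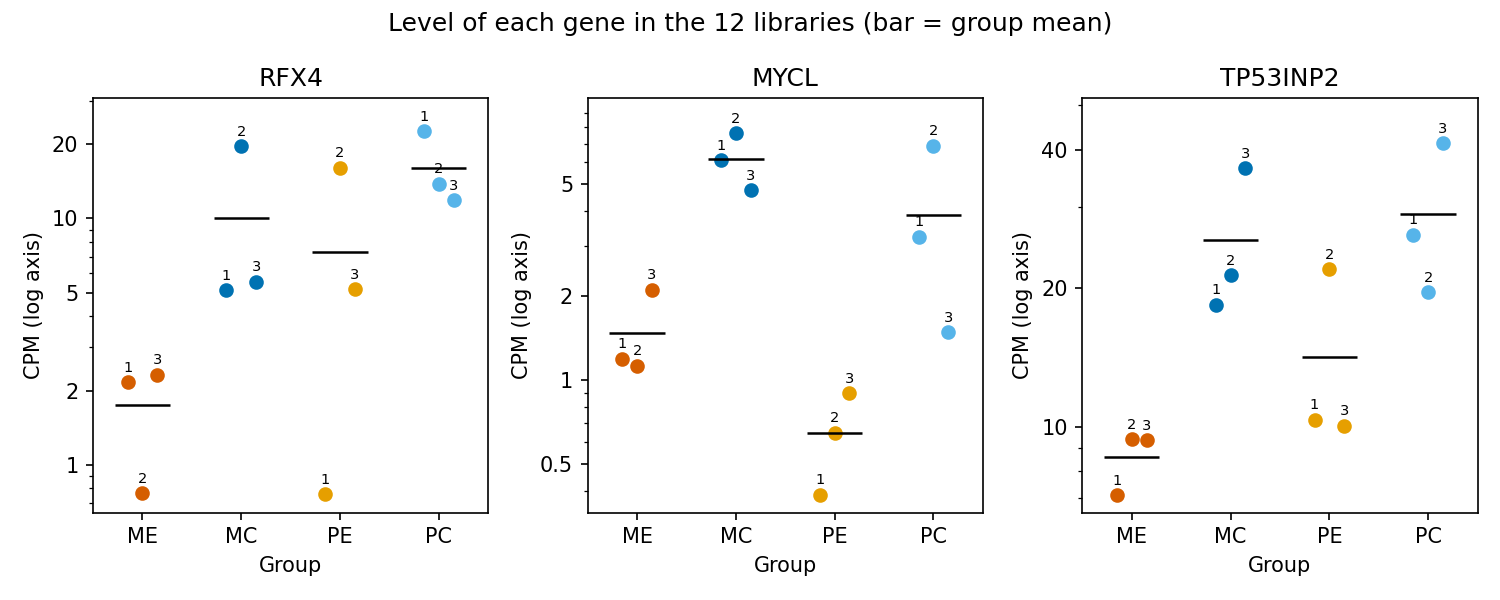
Level of RFX4, MYCL and TP53INP2 in each library, in CPM on a log axis, by group (ME, MC, PE, PC). Points are libraries with their replicate number and bars are group means. RFX4 in PE spans 0.757 to 16.1 CPM, and MYCL stays at or below 2.10 CPM in all restricted libraries.

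The effect of feed restriction in Majorera goats was described by ME over MC. The Log2FC, the log2 of the fitted fold change, was -2.55 for RFX4 (SE 0.62), which is 5.86-fold lower in ME. For MYCL it was -2.08 (SE 0.30), 4.22-fold lower in ME. For TP53INP2 it was -1.58 (SE 0.29), 2.99-fold lower in ME. MC replicate 2 carried part of the RFX4 value, which was -1.67 without that library. With edgeR 0 of the 3 genes met all thresholds (0.0397% of the 15102 genes tested did), and DESeq2 called 3 of 3 (0.53% of genes). All 3 had an unadjusted p under 0.05 (edgeR), as had 1525 of the 1779 genes fitted. To be called, a gene needed more than 100 counts in at least 1 library, a Log2FC beyond 1.5 in either direction and an adjusted p below 0.05. The libraries did not overlap for 3 of 3 genes, where 26.6% of the 1408 genes with counts in all libraries were lower in ME without overlap. Since these values chose the genes, nothing is read from the counts.

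The scaling mattered for ME. With mapped reads alone in place of TMM factors, the median Log2FC of all genes fitted for ME over MC moved by 0.89. TP53INP2 then had a Log2FC of -0.66 and its groups overlapped, with 18.7 RPM (mapped reads alone) in ME replicate 2, against 15.1 and 16.3 in MC replicates 1 and 2. RFX4 and MYCL stayed without overlap on that scale, at -1.82 and -1.26, so that the differences of RFX4, MYCL and TP53INP2 from 0 all moved in the direction of the median. The share of all genes without overlap was not computed for mapped reads alone.

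The effect of feed restriction in Palmera goats was addressed by PE over PC. MYCL, which was chosen by this comparison too, had a Log2FC of -2.57 (SE 0.56), 5.95-fold lower in PE. RFX4 had a Log2FC of -1.14 (SE 0.78, adjusted p = 1, edgeR quasi-likelihood test with Benjamini-Hochberg adjustment), and 7 of the 9 pairs of a PE and a PC library had the lower value in PE. TP53INP2 had a Log2FC of -1.04 (SE 0.37, adjusted p = 0.216, same test), with the lower value in PE in 8 of 9 pairs. Neither adjusted p was below 0.05 by this test. The unadjusted p of TP53INP2 was 0.0213 (edgeR), in a pair where 2084 of the 2263 genes fitted were under 0.05. The RFX4 value rested on single PE libraries, as it was -2.44 without PE replicate 2, the highest, and -0.61 without PE replicate 1, the lowest.

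With edgeR 0 of the 3 genes were called in PE over PC (0.0% of 14753 genes), and DESeq2 called MYCL alone (0.569% of genes). An unadjusted p under 0.05 was found for 2 of the 3 (edgeR), as for 2084 of the 2263 genes fitted, since the genes given for this pair were filtered on p. The study's own edgeR test called genes at the same thresholds in every pair it reports. The edgeR test used here is stricter and called few or 0 genes in each pair, so 0 of 3 says little about these genes. The libraries of MYCL, 1 of 3 genes, did not overlap, where 24.6% of the 1408 genes were lower in PE without overlap. With mapped reads alone RFX4 and TP53INP2 did not overlap either (3 of 3 genes). The share of the 1408 genes without overlap was not computed on that scale, so nothing is read from this count. RFX4 then had a Log2FC of -1.45 (adjusted p = 0.0404, edgeR), under the fold minimum. The comparisons that did not choose a gene share libraries with those that did, so that their p-values are not independent of the choice. The tables are also restricted to genes below an unadjusted p of 0.05 in the pair of groups concerned. RFX4 is outside the tables of PE over PC, PC over MC and PE over MC, and MYCL and TP53INP2 are outside that of PC over MC. Their counts there come from the other tables, which give the same counts for each library.

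**Figure D2:**
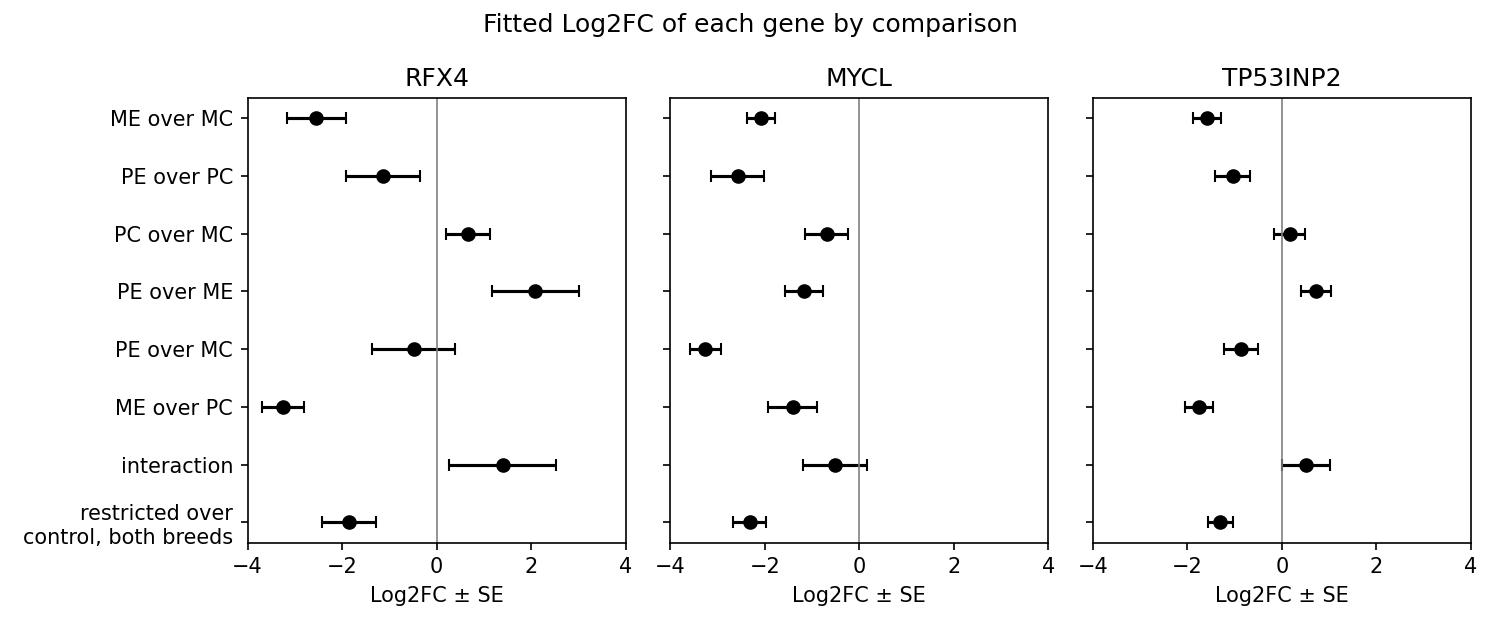
Fitted Log2FC of RFX4, MYCL and TP53INP2 in each comparison. Points are Log2FC values and bars their SE, and values left of 0 are lower in the group named first. MYCL is left of 0 in every comparison, and the SE of RFX4 reaches 1.13 for the interaction of breed and diet.

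Breeds were compared within each diet. Between the control groups, PC over MC, the Log2FC was 0.66 for RFX4 (SE 0.47), -0.69 for MYCL (SE 0.45) and 0.17 for TP53INP2 (SE 0.33), each with an adjusted p = 1 by edgeR. The libraries overlapped for all 3 genes, where 11.2% of the 1408 genes were lower and 7.32% higher in PC without overlap. In RFX4 the overlap came from MC replicate 2, and without it the Log2FC was 1.56. The number called by edgeR was 0 of 3 (0.00691% of 14469 genes), and by DESeq2 it was 0 (0.0276% of genes). With edgeR 0 of the 3 were below an unadjusted p of 0.05. Of the 758 genes fitted 682 were, but those had been kept for a p under 0.05 in this pair, and the 3 had not.

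Between the restricted groups, PE over ME, MYCL had a Log2FC of -1.17 (SE 0.40, adjusted p = 0.785, edgeR), and every PE library was below every ME library. TP53INP2 had a Log2FC of 0.72 (SE 0.32, adjusted p = 1, edgeR), and every PE library was above every ME library in CPM. That order of TP53INP2 depended on the scaling, since with mapped reads alone its Log2FC was -0.0087 and the libraries overlapped. RFX4 had a Log2FC of 2.09 (SE 0.93, adjusted p = 1, edgeR) with PE replicate 1 below ME replicate 2. Without PE replicate 2 the Log2FC was 0.79 for RFX4 and 0.24 for TP53INP2. Called genes numbered 0 of 3 by edgeR (0.0% of 15221 genes) and 0 by DESeq2 (0.092% of genes). With edgeR 1 of the 3 was below an unadjusted p of 0.05, as were 679 of the 920 genes fitted. Genes whose libraries did not overlap made up 11.9% (lower in PE) and 9.45% (higher in PE) of the 1408 genes with counts in all libraries, which are themselves chosen for differing somewhere.

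The change with diet was compared between the breeds as an interaction, the Log2FC of PE over PC minus that of ME over MC, in 1 fit of all 12 libraries. It was 1.40 for RFX4 (SE 1.13), -0.51 for MYCL (SE 0.67) and 0.52 for TP53INP2 (SE 0.51), each with an adjusted p = 1 by edgeR. Single libraries carried these values. Without PE replicate 2 the interaction was 0.09 for RFX4 and 0.04 for TP53INP2, without MC replicate 2 it was 0.49 for RFX4, and without PC replicate 2 it was 0.20 for MYCL. That of TP53INP2 was -0.59 with mapped reads alone. Neither edgeR (0 of 3, where 0.071% of 1408 genes were called) nor DESeq2 (0 of 3, where 0.497% were) called a gene. With edgeR 0 of the 3 were below an unadjusted p of 0.05, where 227 of the 1408 genes were.

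Over both breeds together, the mean Log2FC of restricted over control goats was -1.85 for RFX4 (SE 0.58), -2.32 for MYCL (SE 0.35) and -1.30 for TP53INP2 (SE 0.26). Restricted goats had the lower value in 31 of 36 pairs of libraries for RFX4, 35 of 36 for MYCL and 33 of 36 for TP53INP2. MYCL was called by edgeR, 1 of 3 genes where 5.61% of the 1408 genes were, and RFX4 and MYCL by DESeq2 (8.52% of genes). TP53INP2 was under the fold minimum. The choice of the genes used these differences, so no p is given. With 1 library left out in turn, the Log2FC ranged between -2.54 and -1.41 for RFX4, -2.52 and -1.97 for MYCL and -1.58 and -1.14 for TP53INP2.

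**Figure D3:**
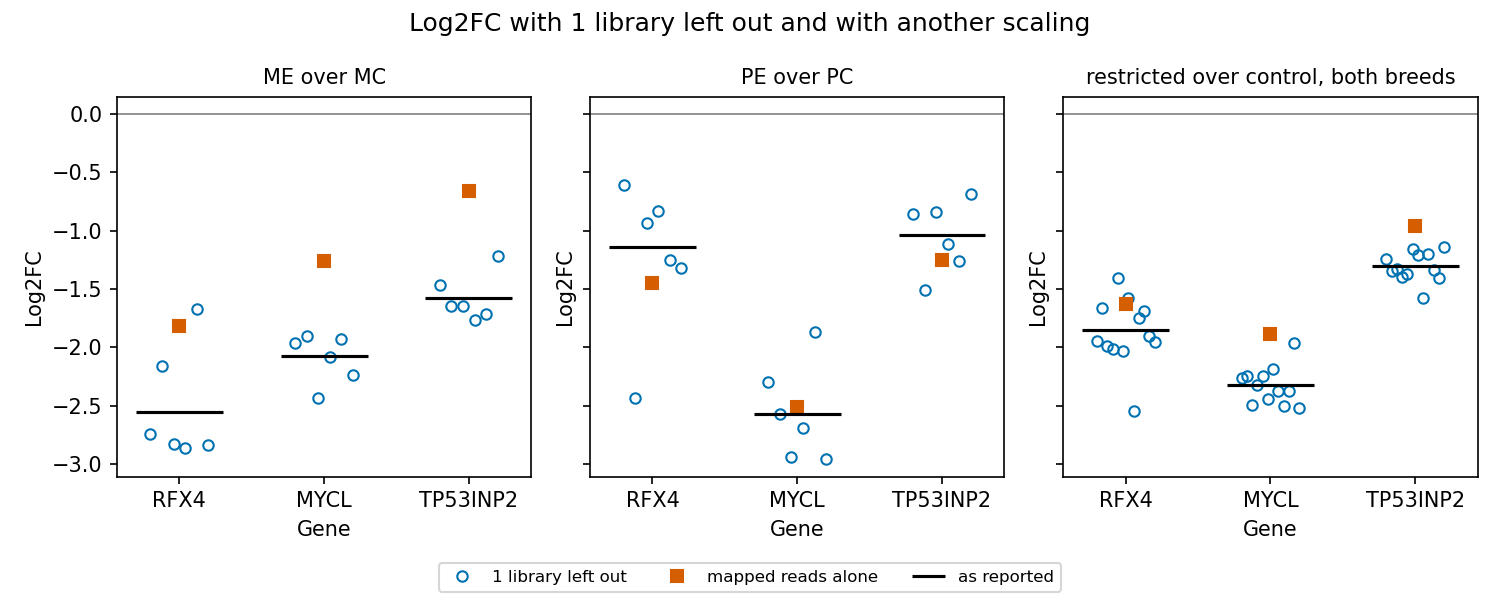
Log2FC of the 3 genes for ME over MC, PE over PC and restricted over control goats in both breeds. Open circles are fits with 1 library left out, squares are fits scaled by mapped reads alone and bars are the values as reported. All values are below 0, and the square of TP53INP2 for ME over MC lies at -0.66.

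The groups that differ in both breed and diet were also compared. For PE over MC, MYCL had a Log2FC of -3.26 (SE 0.33), 9.56-fold lower in PE, and it was the 1 of 3 genes that edgeR called, where 0.0678% of 14760 genes were called. Its PE and MC libraries are also those of the comparisons that chose MYCL, so nothing is read from the call and no p is given. It was not called without MC replicate 1, without MC replicate 2, with all 12 libraries in 1 fit or with a replicate block. DESeq2 likewise called 1 of 3 (0.528% of genes). MYCL was also the 1 gene without overlap of the libraries, where 25.3% of the 1408 genes were lower in PE without overlap. With mapped reads alone TP53INP2 did not overlap either, but the share of genes was not computed on that scale. RFX4 had a Log2FC of -0.49 (SE 0.87, adjusted p = 1, edgeR), and TP53INP2 had -0.87 (SE 0.36, adjusted p = 0.373, edgeR). The sign of RFX4 turned without MC replicate 2, at 0.42, and without PE replicate 1, at 0.07.

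For ME over PC, RFX4 had a Log2FC of -3.25 (SE 0.45), 9.49-fold lower in ME, and TP53INP2 had -1.76 (SE 0.30), 3.39-fold lower in ME. The study names both as lower in ME than in PC but reports no list of genes for this pair, and it also gives both as lower in ME within the Majorera breed. MYCL had -1.41 (SE 0.53, adjusted p = 0.261, edgeR), with the lower value in ME in 8 of 9 pairs of libraries. Without PC replicate 2 it was -0.71. All 3 had an unadjusted p under 0.05 (edgeR), as had 2011 of the 2282 genes fitted, since the genes given for this pair were filtered on p. By edgeR 0 of 3 genes were called (0.0% of 15099 genes), and DESeq2 called RFX4 and TP53INP2 (0.821% of genes). RFX4 and TP53INP2 were chosen by this pair, so nothing is read from these counts. These 2 of 3 genes were also without overlap of the libraries, where 26.6% of the 1408 genes were lower in ME without overlap, and TP53INP2 overlapped with mapped reads alone.

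Levels of markers of the cell types in a biopsy were summed by library. Only marker genes with counts in all 12 libraries could be summed, and these are genes selected for differing. Of 13 markers of myoepithelium and smooth muscle, 4 could be summed (ACTA2, ACTG2, CNN1 and TP63), to 64.9 to 95.2 CPM in ME, 162 to 201 CPM in MC, 45.0 to 113 CPM in PE and 104 to 182 CPM in PC. None of these 4 was at 0 in any library. TP63, the transcription factor of basal cells among them, had a Log2FC of 0.87 over both breeds (SE 0.18, adjusted p = 0.0261, edgeR), opposite in sign to the sum, and was singled out after its values were seen. Their part in the low MYCL values of restricted goats was not tested.

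Of 16 markers of secretory epithelium, 7 could be summed. Their sum was 76521 to 286711 CPM in ME, 380181 to 524322 CPM in MC, 105998 to 395530 CPM in PE and 403045 to 627958 CPM in PC. The highest PE library was replicate 2, which also had the highest RFX4 and TP53INP2 of PE, but the lowest PE library was replicate 3, while RFX4 was lowest in PE replicate 1. The lowest of all libraries was ME replicate 2, which had the lowest RFX4 but the highest TP53INP2 of ME. The part of these genes in the RFX4 and TP53INP2 levels was not tested.

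Of 13 adipocyte markers, 5 could be summed, to 0.693 to 0.819 CPM in ME, 8.16 to 15.3 CPM in MC, 0.818 to 0.919 CPM in PE and 1.47 to 5.38 CPM in PC, and LEP (leptin) was at 0 in 8 libraries. Of 19 macrophage markers, 8 could be summed, to 60.8 to 220 CPM in ME, 24.6 to 44.3 CPM in MC, 33.4 to 67.8 CPM in PE and 21.5 to 34.2 CPM in PC. Of 12 fibroblast markers, 6 could be summed, to 50.8 to 264 CPM in ME, 113 to 775 CPM in MC, 44.2 to 65.3 CPM in PE and 96.5 to 204 CPM in PC. Skeletal muscle (4 of 22 markers, MYH2 at 0 in 2 libraries) had 15.4 to 25.7 CPM in ME, 25.6 to 40.4 CPM in MC, 11.8 to 17.9 CPM in PE and 25.0 to 32.3 CPM in PC. Their part in the 3 genes' values was not tested either.

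Of the cell type lists above, only secretory epithelium and adipocytes had sums without overlap between restricted and control goats in both breeds. The remaining cell type lists also overlapped in at least 1 breed. T, NK and B cell markers (3 of 16) had 68.0 to 107 CPM in ME, 62.0 to 149 CPM in MC, 46.7 to 112 CPM in PE and 34.5 to 53.8 CPM in PC. Dendritic cell (3 of 12) and endothelial markers (2 of 11) stayed at or below 21.3 and 21.8 CPM in every library.

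The genes most like each regulator over the 12 libraries were found by Pearson correlation of log2(CPM + 1) among 980 genes, as a description. The libraries share their scaling and their diet groups, so that genes that differ with diet correlate with each other. For RFX4 they were MMP15, a membrane-bound matrix protease (r = 0.91), CYTB and COX1, both encoded by mitochondrial DNA and part of the respiratory chain (0.88 each), NMNAT2, an enzyme of NAD synthesis (0.88), and the unnamed LOC102184002 (0.88). COX1 averaged 5879 CPM in ME, 11728 CPM in MC, 6864 CPM in PE and 10540 CPM in PC.

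For MYCL the most alike gene was ACTG2, the smooth muscle actin that is also a marker of myoepithelium (r = 0.96). It averaged 5.37 CPM in ME, 26.5 CPM in MC, 4.29 CPM in PE and 11.9 CPM in PC, and so had the same order of groups as MYCL. FUCA1, a lysosomal fucosidase (0.95), POMT1, an enzyme that adds mannose to proteins (0.92), CLN6, a protein of the endoplasmic reticulum (0.92), and MRAP2, an accessory protein of melanocortin receptors (0.91), came next. Each of them had that order of groups too, so it is not particular to ACTG2.

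For TP53INP2 the most alike genes were MGME1, a mitochondrial exonuclease (r = 0.94), PHKG1, a catalytic subunit of phosphorylase kinase (0.93), the unnamed LOC102185919 (0.90), ABCB6, a porphyrin transporter (0.89), and ATG9A, a membrane protein of autophagosome formation (0.88). Among the 3 regulators themselves, r was 0.72 between RFX4 and TP53INP2, 0.50 between RFX4 and MYCL, and 0.45 between MYCL and TP53INP2. Among the 980 genes, RFX4 ranked 316 and TP53INP2 350 in likeness to MYCL.

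**Figure D4:**
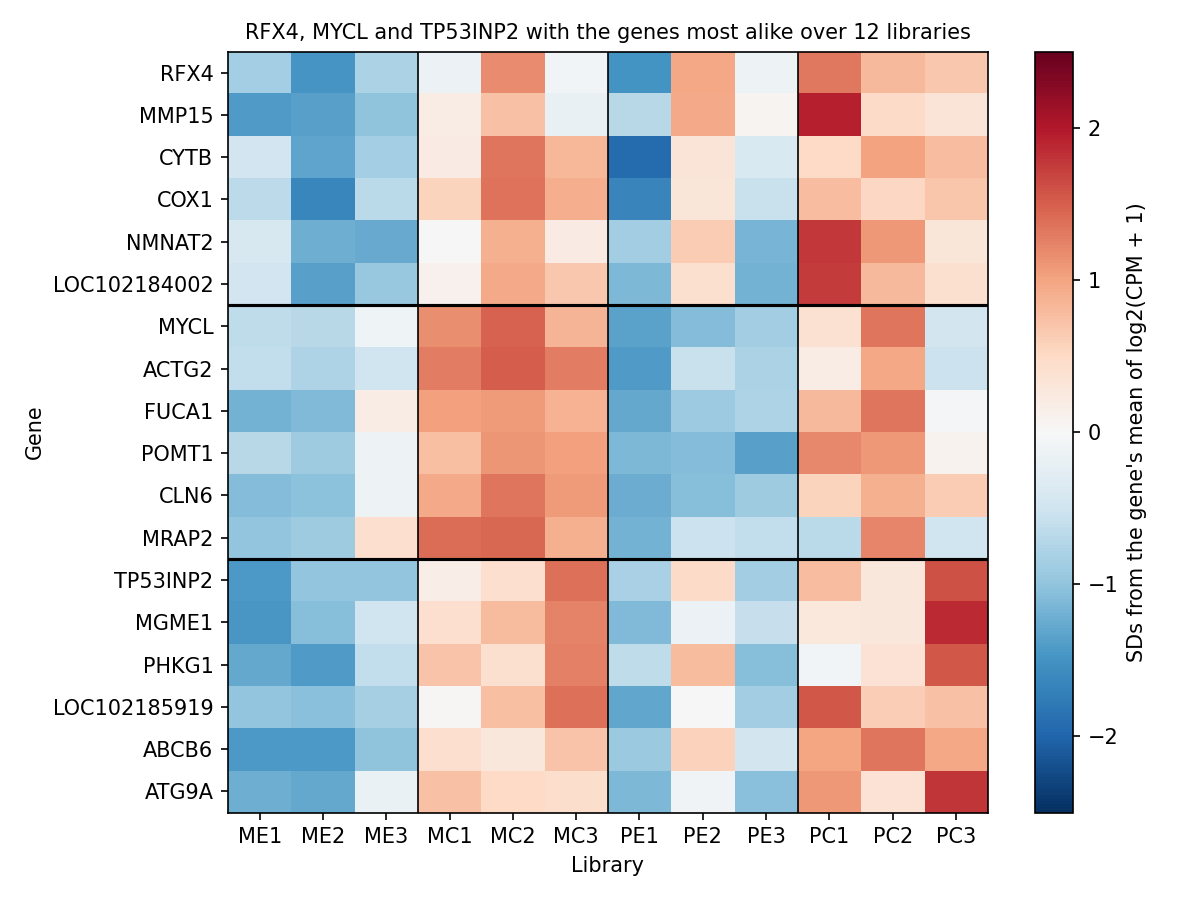
RFX4, MYCL and TP53INP2 with the 5 genes most like each, by library in the order ME, MC, PE and PC. Colour gives the distance of log2(CPM + 1) from the gene's mean over the 12 libraries, in SD, red above and blue below. The MYCL block is blue in most restricted libraries, and PE replicate 2 is red for RFX4 and MMP15.

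Relatives and partners of the 3 regulators were looked up in lists. Of 12 other genes of the RFX family and its partners, 0 were in any table, so that none had counts to compare. Of 12 other genes of the MYC network, 2 were in a table, MYC and MXD1, a MAX partner that opposes MYC. MYC averaged 12.2 ± 2.69 CPM in ME, 5.86 ± 0.739 CPM in MC, 7.21 ± 1.91 CPM in PE and 6.05 ± 0.766 CPM in PC (SD, n = 3 each). Its Log2FC for ME over MC was 1.04 (SE 0.21, adjusted p = 0.139, edgeR), with the sign opposite to that of MYCL, and over both breeds it was 0.66 (SE 0.16, adjusted p = 0.0472, edgeR), under the fold minimum. MXD1 had a Log2FC of 0.83 for PE over PC (SE 0.31, adjusted p = 0.229, edgeR).

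Of 46 other genes of autophagy and TP53INP2 partners, 7 were in a table: TP53INP1, ULK1, ATG2A, ATG9A, ATG9B, WIPI1 and FOXO3. In PE over PC, 5 of them had values. Of these, edgeR called 0 (0.0% of 14753 genes) and DESeq2 called 0 (0.569% of genes). All 5 had an unadjusted p under 0.05, as had 2084 of the 2263 genes fitted, since the table was filtered on p. Their median Log2FC was -0.78, beside 0.55 over all genes fitted. Below 0 were 4 of the 5, and 49.2% of all genes fitted. ATG9B, at 2.23 (SE 0.65, adjusted p = 0.152, edgeR), was the exception. In ME over PC, 5 had values, all below 0 with a median of -0.97, beside 0.82 over all genes fitted. Of these, edgeR called 0 (0.0% of 15099 genes) and DESeq2 called 0 (0.821% of genes). Of all genes fitted in that pair, 41.7% were below 0. All 5 had an unadjusted p under 0.05 there, as had 2011 of the 2282 genes fitted. Both comparisons use the same PC libraries, and ULK1, ATG2A, ATG9B, WIPI1 and FOXO3 had values only in pairs with PC. Against MC, 2 genes of the list had values in ME over MC and 2 in PE over MC, all below 0. Nothing is read from the direction of these genes. ATG9A, the one with counts in every library, averaged 5.57 ± 1.27 CPM in ME, 8.97 ± 0.462 CPM in MC, 5.82 ± 1.21 CPM in PE and 10.8 ± 2.45 CPM in PC (SD, n = 3 each), and over both breeds its Log2FC was -0.79 (SE 0.15, adjusted p = 0.0190, edgeR), under the fold minimum.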

How the data were processed

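Poly(A) RNA of 12 mammary biopsies was sequenced. Per the submitters' processing notes, the tools were Bowtie2 2.2.3, RSEM 1.2.17 and edgeR 3.2.4, and the goat assembly was CHIR_1.0. The tables the authors deposited, 1 for each of the 6 pairs of groups, hold RSEM expected counts per gene and library, not normalized, and 0 count columns were left without a sample. The log2 fold changes, log2 CPM, p-values and FDR in the same tables were made by the authors with edgeR. Of these, the p-values and FDR served only to derive how many genes were tested in each pair (14469 to 15221), and the fold changes and the enrichment sheets were not used. A gene is in a table only where its unadjusted p was below 0.05.

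Expected counts were rounded and tested with edgeR 4.0.16 (quasi-likelihood F test) and limma 3.58.1 under R 4.3.3, each pair with its 6 libraries. Library sizes were the study's mapped reads times TMM factors, and the spread was learned from rows that reached 1 CPM in 3 or more libraries. Both used the 1998 rows, of 24260, that were at hand of the study's table of all genes, whose counts matched within 1% in 3411 of 3411 values shared. The Benjamini-Hochberg adjustment ran over all genes the authors tested, and a gene absent from a table was ranked behind those in it. The interaction and the mean over breeds were fitted on 12 libraries and 1408 genes. DESeq2 1.42.0 (Wald test), other scalings, a replicate block, no filter, and leaving out each library were the alternatives. Levels, correlations and figures were made with matplotlib 3.10.9, pandas 2.3.3 and numpy 2.4.6 in Python 3.11.15. Genes named are the 3 regulators, the 5 genes most like each over 12 libraries (mean of at least 1 CPM), and, of the lists on the RFX family, the MYC network, autophagy and mammary transcription factors, the members with counts in all libraries, or the 4 with the largest difference with diet where there were over 6. Other members of a list, up to 10, are named to account for a count. The regulators and the lists were chosen with earlier results of these data known. No genome of the build was used here, so no coordinates or sequences are given. The p-values measure the spread between 3 goats a group.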

Additional observations from a re-analysis of the deposited data

How the results depend on the processing

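Of 342 refits of a gene's Log2FC, 330 kept their sign and moved by less than the spread between replicates. The 330 include refits that altered only the number of genes adjusted over, which leaves the Log2FC as it was. Refits with no filter altered only the estimate of the spread and hardly moved the Log2FC. Neither kind tells whether a Log2FC is stable. With mapped reads alone the median Log2FC of all genes moved by 0.89 for ME over MC, -0.05 for PE over PC, 0.38 for PC over MC, -0.60 for PE over ME, 0.32 for PE over MC, 0.52 for ME over PC, -0.95 for the interaction and 0.42 over both breeds. TP53INP2 then turned sign for PE over ME (-0.0087) and for the interaction (-0.59), and moved to -0.66 for ME over MC and -1.24 for ME over PC, while MYCL moved to -1.26 for ME over MC and -1.25 for the interaction. Leaving out 1 library turned the sign of TP53INP2 for PC over MC (-0.02 without MC replicate 1, -0.18 without PC replicate 3, otherwise up to 0.53), of RFX4 for PE over MC (0.42 without MC replicate 2, 0.07 without PE replicate 1, otherwise down to -1.76) and of MYCL for the interaction (0.20 without PC replicate 2, otherwise down to -0.89), and moved RFX4 to 1.56 for PC over MC without MC replicate 2. The number of the 3 genes called was 3 (DESeq2) and 1 (no filter) for ME over MC, against 0 as reported. Of all 15102 genes, 80 and 33 were called, against 6. For PE over PC 1 of the 3 was called with mapped reads alone, DESeq2 and no filter, against 0. Of all 14753 genes, 164, 84 and 132 were called, against 0. For ME over PC 1 of the 3 was called with mapped reads alone. With TMM over the deposited genes, DESeq2 and no filter 2 were, against 0. Of all 15099 genes, these settings called 664, 33, 124 and 53, against 0. Over both breeds 2 of the 3 were called with mapped reads alone, DESeq2 and no filter, against 1. Of the 1408 genes, 269, 120 and 130 were called, against 79. For PE over MC 0 of the 3 were called with all 12 libraries in 1 fit, against 1, and 4 of 14760 genes, against 10. With 1 library left out the number of the 3 called was 0 to 1 for PE over MC (0 without MC replicate 1 or 2). It was 0 to 1 for ME over PC (1 without ME replicate 2), 1 to 3 over both breeds (3 without PE replicate 2) and 0 elsewhere. The fits in parentheses called 4, 3, 4 and 119 of all genes, in that order. The cause of these moves was not tested. With a replicate block the number of the 3 called for PE over MC was 0, against 1, and in no other comparison did it move. That fit called 3 of all genes, against 10. Same-numbered libraries correlated between -0.319 and 0.229, and no test of pairing was made. For ME over PC every library correlated best with its own number, at 0.166, 0.0788 and 0.137. MYCL in PE rests on 19 to 48 counts a library, which limits its precision.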

Other observations

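Other transcription regulators of the mammary gland had more members in the tables than the families above. Of 45 listed, 23 were in a table and 10 had counts in all libraries, all of them genes selected for differing. Over both breeds all 10 had a Log2FC above 0, as had 728 of the 1408 genes fitted. The median of the 10 was 1.16, beside 0.21 over all genes fitted, the sign opposite to that of RFX4, MYCL and TP53INP2. The 10 were TP63, RUNX2, TBX3, NR4A1, FOS, JUN, JUNB, ATF3, EGR1 and CSRNP1, and they do not stand for all 45. With edgeR 0 of the 10 were called (5.61% of 1408 genes), 10 had an unadjusted p under 0.05, as had 1089 of the 1408 genes, and DESeq2 called 2 (8.52% of genes). In PE over PC, 14 of 15 were above 0, with a median of 1.495, beside 0.55 over all genes fitted. Above 0 there were 1150 of the 2263 genes fitted. Of these 15, edgeR called 0 (0.0% of 14753 genes) and DESeq2 called 5 (0.569% of genes). All 15 had an unadjusted p under 0.05, as had 2084 of the 2263 genes fitted, since the table was filtered on p. In ME over PC, 10 of 14 were above 0, with a median of 0.88, beside 0.82 over all genes fitted. Above 0 there were 1331 of the 2282 genes fitted. SREBF1, NR3C1, NFIB and NFIC were below 0 in ME over PC, and NR3C1 was the 1 below 0 in PE over PC.

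The 4 with the largest difference over both breeds are immediate early genes, transcription factors induced within minutes of a stimulus. FOS averaged 17.4 ± 9.87 CPM in ME, 3.94 ± 5.15 CPM in MC, 26.8 ± 16.5 CPM in PE and 4.52 ± 5.62 CPM in PC (SD, n = 3 each), with a Log2FC of 2.35 (SE 0.69, adjusted p = 0.109, edgeR). NR4A1, a nuclear receptor, averaged 1.46 ± 0.851 CPM in ME, 1.25 ± 0.748 CPM in MC, 9.75 ± 10.3 CPM in PE and 0.845 ± 0.542 CPM in PC (SD, n = 3 each), with a Log2FC of 1.89 (SE 0.52, adjusted p = 0.0832, edgeR). JUNB and EGR1 had a Log2FC of 1.44 (SE 0.50, adjusted p = 0.226, edgeR) and 1.33 (SE 0.57, adjusted p = 0.542, edgeR). For none of the 4 did the difference pass the threshold of this test.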
